A study of Mus musculus with 8 samples.

Results

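The genes described here encode 10 transcription factors of the adipogenic core, chosen by name: Cebpa, Cebpb, Cebpd and Cebpg of the C/EBP family, the nuclear receptors Pparg and Rxra, the sterol-regulated factor Srebf1, and Ebf1, Ebf2 and Zfp423, which act in preadipocyte commitment. All 10 were found among the 23699 genes listed in each library, and all 10 had a mean FPKM (fragments per transcript length and sequencing depth) of at least 1, the minimum for testing, as had 11398 genes in all. The study measured total RNA by sequencing in 3T3-L1 preadipocytes, an established mouse fibroblast line that is 1 clone and can be driven to become fat cells. Of the 8 libraries, 4 came from cells given control siRNA, a mix of 3 nontargeted Stealth siRNAs, and 4 from cells given a mix of 3 Stealth siRNAs against Fto, the gene of an RNA demethylase. Both groups received 40 nM siRNA with Lipofectamine 2000 for 24 hours before confluence, were grown in medium with newborn calf serum, and were sampled 2 days past confluence. The labels name no differentiation cocktail, no genotype and no other agent, and they do not say whether the 4 replicates of a group were separate cultures, so each p-value reflects only how these 8 samples spread, and that spread may be technical.

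In the textbook sequence of fat cell formation, C/EBP beta and C/EBP delta are induced early and then activate C/EBP alpha and PPAR gamma, which sustain each other and switch on the genes of lipid storage. PPAR gamma binds DNA as a heterodimer with a retinoid X receptor, of which Rxra encodes the alpha form. EBF factors act upstream of and beside PPAR gamma and C/EBP alpha, Zfp423 marks committed preadipocytes, and Srebf1 encodes SREBP1, which drives genes of fatty acid synthesis. Confluent 3T3-L1 cells stand at the start of this sequence.

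The RefSeq table (GRCm38.p6) held 15 promoters for 8 of the 10 genes, each running from 250 bases before to 50 bases after an annotated start. The 3 printed below are shown because Cebpa and Cebpg are neighbours that both rose, and because the most downstream of the 3 Pparg starts is the only Pparg promoter here that holds letters matching a C/EBP site. Capitals mark matches to TTGCNNAA (C/EBP), CCAAT (or ATTGG on the other strand), GGGCGG and TATAAA, each searched on both strands.

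Cebpa, chr7:35119043-35119342, plus strand: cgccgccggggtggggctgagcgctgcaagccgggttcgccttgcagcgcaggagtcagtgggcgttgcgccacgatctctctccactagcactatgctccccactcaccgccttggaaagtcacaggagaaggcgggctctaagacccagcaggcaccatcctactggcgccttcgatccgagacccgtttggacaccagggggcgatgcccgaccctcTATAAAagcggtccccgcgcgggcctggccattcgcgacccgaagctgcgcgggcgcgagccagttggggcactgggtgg
Cebpg, chr7:35056517-35056816, minus strand: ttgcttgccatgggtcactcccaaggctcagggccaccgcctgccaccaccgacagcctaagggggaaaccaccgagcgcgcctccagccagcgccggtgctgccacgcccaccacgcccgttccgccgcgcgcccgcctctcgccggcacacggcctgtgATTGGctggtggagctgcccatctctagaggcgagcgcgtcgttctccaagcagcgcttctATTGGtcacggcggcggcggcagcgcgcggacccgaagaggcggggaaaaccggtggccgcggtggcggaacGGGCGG
Pparg, most downstream start, chr6:115421816-115422115, plus strand: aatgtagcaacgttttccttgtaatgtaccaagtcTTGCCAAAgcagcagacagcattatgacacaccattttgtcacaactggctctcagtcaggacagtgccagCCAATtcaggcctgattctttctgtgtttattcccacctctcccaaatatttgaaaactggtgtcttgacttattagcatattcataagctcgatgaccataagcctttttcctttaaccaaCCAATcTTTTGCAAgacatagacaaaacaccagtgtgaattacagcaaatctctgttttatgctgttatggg

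In the Cebpa promoter the capitals mark TATAAA, which begins 30 bases before the start. The Cebpg promoter has ATTGG at 89 and at 28 bases before the start, and GGGCGG within its last bases. The Pparg window has C/EBP matches at 215 bases (TTGCCAAA) and 16 bases (TTTTGCAA) before the start and CCAAT at 144 and 22 bases before it. GC content was 67.3% in the Cebpa window, 71.7% in the Cebpg window and 40.3% in the Pparg window. The C/EBP letters occurred in 2 of the 15 core promoters, against 10.8% of the 32851 promoters of the same length in the table, CCAAT in 5 (37.4% of all), GGGCGG in 9 (35.7%) and TATAAA in 3 (13.6%). No core promoter held CACGTG (7.15% of all), TGACGTCA (1.79%) or TCACNCCAC (1.24%). These matches describe letters in a window and are not measured binding.

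Fto was measured first, as a check of the labels. It was at 54.6, 55.4, 56.2 and 55.2 FPKM in control siRNA replicates 1 to 4 and at 13.8, 10.7, 12.3 and 11.6 FPKM in Fto siRNA replicates 1 to 4, so that the mean fell by 78.1% (exact two-sided permutation p = 0.0286, the smallest that 4 against 4 libraries allow; limma adjusted p = 7.3e-08). The widths of the deposited intervals imply 18.9 to 24.4 M fragments per library, and 11351 to 11397 genes reached 1 FPKM. Preadipocyte markers summed to 8428 to 8855 FPKM per control and 9075 to 9997 FPKM per Fto siRNA library. The largest parts of the sum were the collagen gene Col1a2, then Vim and the collagen gene Col1a1. Of the 8 tested, Ly6a, Thy1, Col1a1 and Col1a2 were called higher and Pdgfra and Pdgfrb lower, where 19.3% of all tested genes were called (6.97% higher and 12.3% lower). The sum of mature adipocyte markers ranged from 5.20 to 16.6 FPKM in the controls, highest in replicate 4, and from 3.73 to 6.88 FPKM in the Fto siRNA libraries, with Lep under 0.5 FPKM in every library and neither tested marker called. Macrophage markers summed to 15.8 to 21.8 FPKM in the controls and 13.01 to 14.4 FPKM with Fto siRNA, mostly Lyz2, which fell (log2 fold change -0.50, limma adjusted p = 0.0032). Cd68 (0.974 and 1.20 FPKM on average, not called) and Csf1r (0.672 and 0.933 FPKM, not tested) had higher means with Fto siRNA, and Emr1 was at 0 and Ptprc under 0.5 FPKM throughout. Endothelial, epithelial and muscle markers summed to at most 2.22 FPKM, with Epcam, Krt18, Myod1 and Ckm at 0. In bulk RNA, fewer cells of a type and less RNA per cell cannot be told apart, and the part of these marker differences in the values below was not tested.

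With Fto siRNA, Cebpa, Cebpg and Rxra rose, Ebf1 fell, and Cebpb, Cebpd, Pparg, Srebf1, Ebf2 and Zfp423 were not called (limma on log2(FPKM + 0.5), Benjamini-Hochberg adjusted p under 0.05 over all 11398 tested genes). The changes were small: 36.6% higher for Cebpa, 18.5% for Cebpg and 9.77% for Rxra, and 15.0% lower for Ebf1. The 4 called genes make 40.0% of the 10, against 19.3% of all tested genes (6.97% higher and 12.3% lower). The 10 genes and the lists below were chosen with earlier results of these data known. Their shares of called genes are therefore not independent of the values. The median log2 fold change was 0.08 over the 10 genes and -0.02 over all tested genes. The groups did not overlap for the same 4 genes, 3 higher and 1 lower, where 9.08% of tested genes had all Fto siRNA libraries above all controls and 15.1% had them below. Of all calls, 36.2% were higher with Fto siRNA, and this share was 47.6% after median-ratio scaling and 47.4% after quantile normalization. Effects of the sequences in the Fto siRNA mix and of the loss of Fto cannot be told apart in this design. GACCTTA or ACCTTAA occurred in the 3' untranslated region of 346 of 1245 searched genes called lower, and of 13.9% of all 9939 searched. None of the 10 core genes held these letters, while Lpl, Nfib, Hdac3 and Fosl2, which fell, and Klf2 and Trib3, which rose, did. The cause was not tested.

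**Figure D1:**
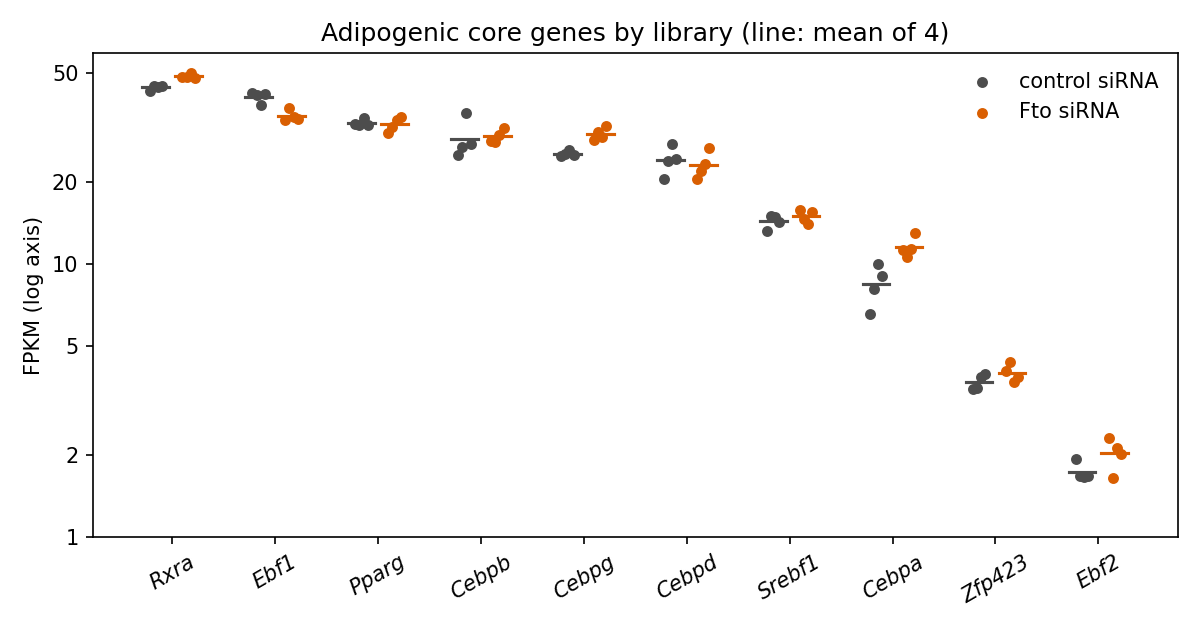
FPKM of each of the 10 core genes in each of the 8 libraries on a log axis, with control siRNA and Fto siRNA libraries as separate points and a bar at each group's mean. The groups are apart for Cebpa, Cebpg, Rxra and Ebf1 and overlap for the other 6 genes.

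FPKM is scaled by transcript length, and levels were set side by side between genes on that basis. The scaling does not correct for base composition or overlapping genes, so the order is of FPKM only. In the controls the order of mean FPKM was Rxra (44.4), Ebf1 (41.1), Pparg (32.9), Cebpb (28.8), Cebpg (25.4), Cebpd (24.1), Srebf1 (14.3), Cebpa (8.45), Zfp423 (3.71) and Ebf2 (1.74). The ranges of neighbours in this order overlapped for Pparg and Cebpb, for Cebpb and Cebpg, and for Cebpg and Cebpd. Overlap of ranges does not show that levels are alike, and differences between neighbours were not tested here. Within each control library Cebpb stood above Cebpg, while with Fto siRNA Cebpg stood above Cebpb in every library but replicate 3. All other neighbours were apart. With Fto siRNA the only exchange of places was between Cebpg (30.04) and Cebpb (29.4), whose ranges overlapped. Ebf1 (34.9) then overlapped Pparg (32.6), from which it had been apart in the controls. The FPKM of Pparg thus stood above that of Cebpa in all 8 libraries. The gene-level FPKM does not separate the Pparg isoforms that start at different promoters.

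Cebpa encodes C/EBP alpha, the factor that sustains the adipocyte program together with PPAR gamma. It lies at chr7:35904312-35906951 (mm9, as are all loci below) in a single exon. Its level was 6.58, 8.15, 10.0 and 9.04 FPKM in control replicates 1 to 4 and 11.2, 10.6, 11.4 and 12.96 FPKM in Fto siRNA replicates 1 to 4. Every Fto siRNA library stood above every control, the closest being Fto siRNA replicate 2 and control replicate 3. The mean rose from 8.45 ± 1.47 to 11.5 ± 0.994 FPKM (SD, n = 4 each), a log2 fold change of 0.44 (SE 0.11, 95% interval 0.20 to 0.68, limma adjusted p = 0.019). This is also the most variable core gene, with a spread within groups at the 94.4th percentile of tested genes and 333 to 681 implied fragments per library. Cebpa was no longer called when low genes were kept (limma adjusted p = 0.0602), when control replicate 2 was left out (0.0509) or when Fto siRNA replicate 4 was left out (0.0566), while the log2 fold change stayed between 0.33 and 0.52 in all alternatives.

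Cebpg encodes C/EBP gamma, a partner that lacks a strong activation domain of its own, and lies beside Cebpa at chr7:35831441-35841585. The controls were at 24.9, 25.4, 26.1 and 25.0 FPKM and the Fto siRNA libraries at 28.6, 30.4, 29.2 and 31.96 FPKM. The lowest Fto siRNA library was above the highest control. The mean rose from 25.4 ± 0.559 to 30.04 ± 1.48 FPKM (SD, n = 4 each), a log2 fold change of 0.24 (SE 0.041, 95% interval 0.15 to 0.33, limma adjusted p = 0.0032). Its call held in each of the 18 alternatives, and 2329 to 3105 implied fragments stood behind each value.

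The genes around this pair were read as well. A gap of 62.7 kb separates Cebpg from Cebpa, and 16 genes are listed within 500 kb, of which 10 were tested. Among these 10, Cebpg, Cebpa and the sulfotransferase gene Chst8 rose and none fell, where 6.97% of all tested genes rose and 12.3% fell. Cebpg and Cebpa are the genes around which the window was drawn. Chst8 rose from 3.13 ± 0.436 to 4.44 ± 0.254 FPKM (SD, n = 4 each; log2 fold change 0.45, limma adjusted p = 0.0054). The log2 fold changes of other neighbours were -0.01 for the peptidase gene Pepd (limma adjusted p = 0.85), 0.03 for Gpatch1 (0.68), 0.12 for Kctd15 (0.146), -0.07 for Nudt19 (0.59), 0.01 for C230052I12Rik (0.95), 0.01 for Ankrd27 (0.93) and -0.15 for Ccdc123 (0.107). Every Fto siRNA library lay below every control for Ccdc123, and likewise for Rgs9bp, which was below the minimum for testing at 1.06 ± 0.0957 and 0.602 ± 0.0848 FPKM (SD, n = 4 each).

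Cebpb and Cebpd encode the early C/EBP factors, and neither was called. Cebpb, at chr2:167514415-167515918, was at 25.0, 26.8, 35.7 and 27.6 FPKM in the controls and at 28.2, 28.1, 29.8 and 31.4 FPKM with Fto siRNA. The Fto siRNA values all lie inside the control range, which is wide because control replicate 3 is high. Its log2 fold change was 0.04 (95% interval -0.17 to 0.25, limma adjusted p = 0.80). Cebpd, at chr16:15887379-15889638, was at 20.6, 23.9, 27.5 and 24.2 FPKM in the controls and at 20.5, 21.9, 23.3 and 26.7 FPKM with Fto siRNA. The groups overlap over nearly their whole ranges, and the log2 fold change was -0.06 (95% interval -0.27 to 0.15, limma adjusted p = 0.71). Cebpd overlaps 2310008H04Rik, whose log2 fold change was 0.06 (limma adjusted p = 0.27). The labels state no strand, so a read in the shared stretch could belong to either gene.

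The 3 C/EBP genes with a single exon varied together across replicates. Cebpa and Cebpb had the same order of libraries in both groups: replicate 1 lowest, then 2, 4 and 3 in the controls, and 2, 1, 3 and 4 with Fto siRNA. Cebpd had that same control order. As log2 deviations from the group mean, control replicate 1 stood at -0.32 for Cebpa, -0.19 for Cebpb and -0.21 for Cebpd, and control replicate 3 at 0.25, 0.32 and 0.20. Fto siRNA replicate 4 stood at 0.16, 0.10 and 0.21. Cebpg, with 2 exons and a GC content of 43.3%, stayed within -0.07 and 0.09 in all 8 libraries, with the same extremes in smaller size: control replicate 1 lowest, control replicate 3 highest and Fto siRNA replicate 4 highest in its group. Pparg, with 8 exons, also had control replicate 3 and Fto siRNA replicate 4 highest, so these highest libraries were not particular to the single-exon genes. The rest of its control order differed, and control replicate 1 stood at -0.01 and was not its lowest.

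Transcript composition was set beside this pattern. Transcripts from GENCODE M21, matched by symbol for 9939 tested genes (87.2%) and for 10 of 10 core genes, gave a GC content of 62.6% for Cebpa, 67.2% for Cebpb and 51.6% for Cebpd. The other 32 tested genes with a single-exon transcript of at least 60% GC had median deviations of -0.13, -0.03, 0.15 and 0.05 in control replicates 1 to 4 and -0.05, -0.08, -0.04 and 0.12 in Fto siRNA replicates 1 to 4. Their median log2 fold change was 0.12, with 4 called higher and 1 lower. All 470 tested genes of at least 60% GC, with any exon number, had medians of -0.07, -0.01, 0.10 and -0.01 in the controls. With Fto siRNA these were 0.04, -0.06, -0.01 and 0.03, highest in replicate 1 and not in replicate 4. The median log2 fold change of these 470 was -0.01, with 38 called higher and 40 lower. Over all tested genes the median was -0.02, with 6.97% called higher and 12.3% lower. The part of composition in the rise of Cebpa was not tested beyond a GC correction of each library, chosen after seeing the data. Under this correction the log2 fold change of Cebpa was 0.45 (limma adjusted p = 0.0029). On the same genes uncorrected it was 0.44 (limma adjusted p = 0.0115).

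**Figure D2:**
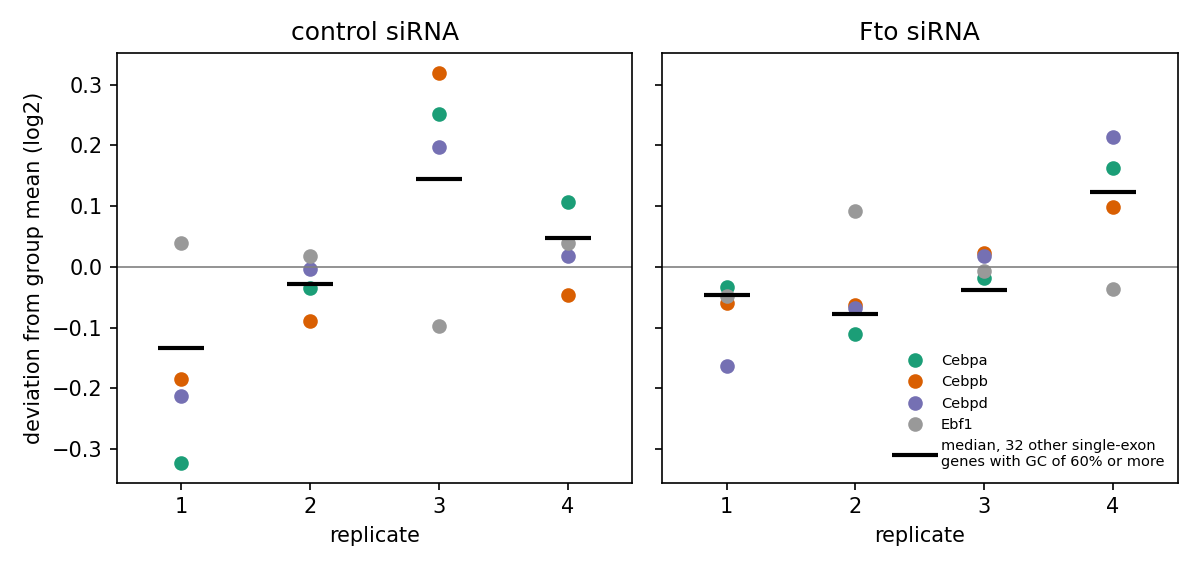
Log2 deviation of Cebpa, Cebpb, Cebpd and Ebf1 from their group means, by replicate, for control siRNA and Fto siRNA, with black bars at the median of the other 32 single-exon genes of at least 60% GC. Control replicate 1 is low and control replicate 3 high for Cebpa, Cebpb and Cebpd, while Ebf1 (grey) is low in control replicate 3.

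Rxra rose and its partner Pparg was not called. Pparg, at chr6:115311239-115440419, encodes the nuclear receptor without which fat cells do not form. It was at 32.6, 32.3, 34.3 and 32.4 FPKM in the controls and at 30.2, 31.8, 33.6 and 34.7 FPKM with Fto siRNA. The groups overlap, and the log2 fold change of -0.01 had a 95% interval of -0.12 to 0.09 (limma adjusted p = 0.86). Rxra, at chr2:27532721-27618839, was at 43.0, 44.9, 44.6 and 45.1 FPKM in the controls and at 48.4, 48.4, 50.1 and 48.2 FPKM with Fto siRNA. Its control values all lie below its Fto siRNA values. The mean rose from 44.4 ± 0.943 to 48.7 ± 0.874 FPKM (SD, n = 4 each), a log2 fold change of 0.13 (SE 0.031, 95% interval 0.06 to 0.20, limma adjusted p = 0.0144). This small rise stands on a narrow spread within groups, at the 2.15th percentile of tested genes, and 4531 to 5490 implied fragments.

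Srebf1, at chr11:60012591-60034106, was not called. It was at 13.3, 15.0, 14.9 and 14.2 FPKM in the controls and at 15.8, 14.6, 14.03 and 15.5 FPKM with Fto siRNA. The groups overlap, and the log2 fold change was 0.06 (95% interval -0.05 to 0.18, limma adjusted p = 0.45). Leaving out control replicate 1 gave 0.025, and leaving out Fto siRNA replicate 1 gave 0.037. Srebf1 overlaps the end of Rai1, whose log2 fold change was -0.01 (limma adjusted p = 0.96).

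Ebf1 was the core gene that fell. It encodes early B-cell factor 1, a DNA-binding protein of the adipocyte and B-cell lineages, at chr11:44431636-44818674. The controls were at 42.2, 41.5, 38.3 and 42.2 FPKM and the Fto siRNA libraries at 33.7, 37.2, 34.7 and 34.0 FPKM. Control replicate 3, the lowest control, was above Fto siRNA replicate 2, the highest of its group. The mean fell from 41.1 ± 1.85 to 34.9 ± 1.60 FPKM (SD, n = 4 each), a log2 fold change of -0.23 (SE 0.045, 95% interval -0.33 to -0.13, limma adjusted p = 0.0060). The call held in each of the 18 alternatives, with a log2 fold change between -0.26 and -0.19.

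Ebf2, a factor of brown and beige fat precursors, and Zfp423, a zinc-finger partner of the EBF proteins, were the lowest core genes. Ebf2, at chr14:67852129-68048604, was at 1.94, 1.67, 1.66 and 1.67 FPKM in the controls and at 2.32, 1.65, 2.13 and 2.01 FPKM with Fto siRNA. Fto siRNA replicate 2 lies below all controls and the other 3 above them, and the log2 fold change was 0.17 (95% interval -0.04 to 0.39, limma adjusted p = 0.25). With 139 to 207 implied fragments per library, its counting error alone reached 8.48%. Zfp423, at chr8:90185709-90483494, was at 3.51, 3.52, 3.85 and 3.97 FPKM in the controls and at 4.06, 4.39, 3.71 and 3.87 FPKM with Fto siRNA. The groups overlap, and the log2 fold change was 0.10 (95% interval -0.05 to 0.25, limma adjusted p = 0.36). Without Fto siRNA replicate 2 it was 0.057.

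**Figure D3:**
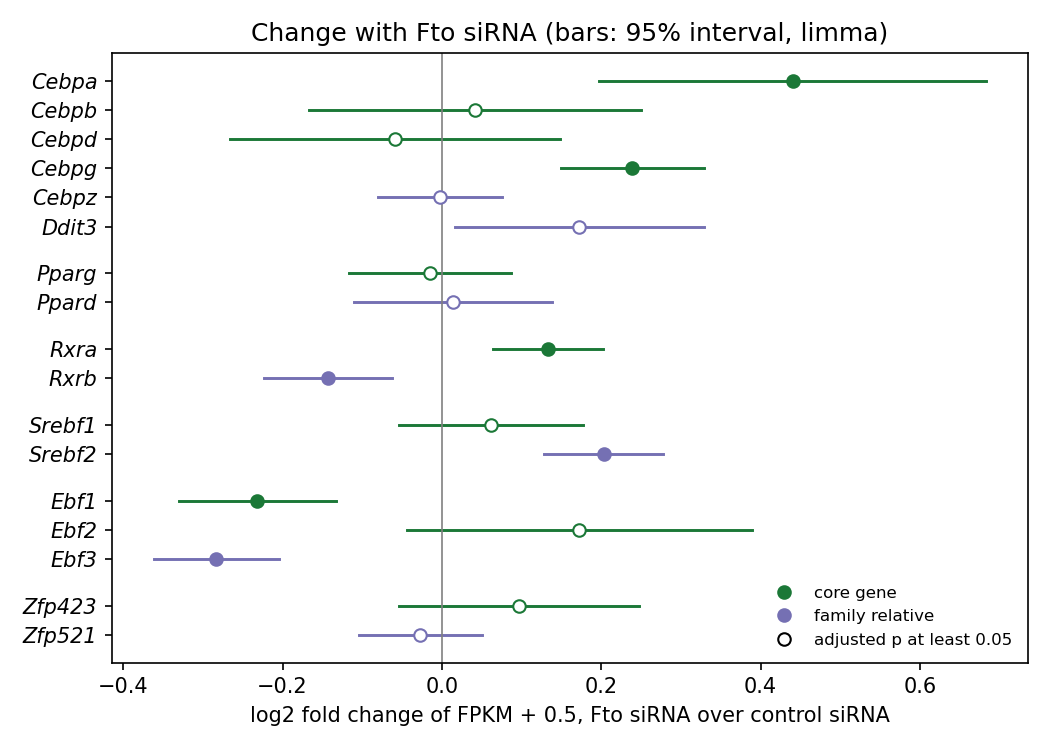
Log2 fold change, Fto siRNA over control siRNA, of each core gene (green) and of 7 tested family relatives (purple), with its 95% interval from limma and filled points where called. Intervals of Cebpa, Cebpg and Rxra lie above 0 and that of Ebf1 below 0, while those of the other 6 core genes include 0.

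A fold change past the threshold in one gene and not in another does not show that they differ, so log2 ratios within a library were compared for 8 pairs by an exact two-sided permutation test. None of the 8 passed 0.05 after Benjamini-Hochberg adjustment over the pairs, and the smallest adjusted p was 0.0571. An exact p of 0.0286 is the smallest that 4 against 4 libraries allow. After adjustment, a pair at that value passes only if enough other pairs are also at it. The failure to pass therefore does not show that the ratios are alike. The log2 ratio of Cebpa to Pparg was -1.91 ± 0.223 in the controls and -1.46 ± 0.0824 with Fto siRNA (SD, n = 4 each), a difference of 0.46 (SE 0.12, exact p = 0.0286). The ratio to Cebpb differed by 0.40 (SE 0.070) and that to Cebpd by 0.50 (SE 0.062), each with an exact p of 0.0286. For these 3 pairs every Fto siRNA library was above every control. The Cebpa to Cebpg ratio differed by 0.20 (SE 0.12) with overlapping groups (exact p = 0.143, adjusted 0.163). Within the early pair, the Cebpb to Cebpd ratio differed by 0.10 (SE 0.065, exact p = 0.2).

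The Ebf1 to Zfp423 log2 ratio was 3.30 ± 0.120 in the controls and 2.97 ± 0.0676 with Fto siRNA (SD, n = 4 each), lower in every Fto siRNA library than in any control (difference -0.33, SE 0.069, exact p = 0.0286, adjusted 0.0571). Ebf1 to Ebf2 differed by -0.40 (SE 0.12) and Pparg to Rxra by -0.15 (SE 0.048). Both pairs had overlapping groups (exact p = 0.0571, adjusted 0.0762). With a pseudocount of 1 in place of 0.5, Ebf1 to Ebf2 also reached an exact p of 0.0286. The 5 of the 8 pairs at that value then had an adjusted p of 0.0457. For the Cebpa pairs and Ebf1 to Zfp423 the adjusted p fell because Ebf1 to Ebf2 joined them at the smallest exact p.

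**Figure D4:**
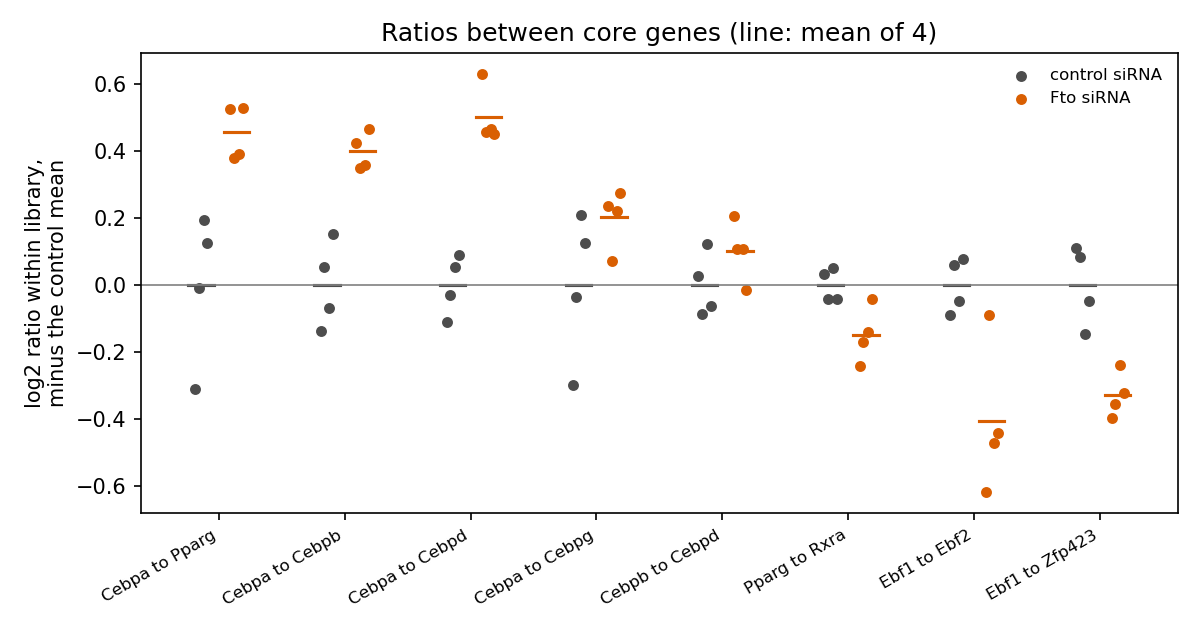
Within-library log2 ratios of the 8 gene pairs minus each pair's control mean, 1 point per library, with a line at the mean of the 4 control siRNA or Fto siRNA libraries. The groups are apart for Cebpa to Pparg, Cebpa to Cebpb, Cebpa to Cebpd and Ebf1 to Zfp423, and overlap for the other 4 pairs.

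Among 11 relatives from the same protein families, 7 were tested, of which 1 rose and 2 fell (42.9% called, beside 19.3% of all tested genes; median log2 fold change -0.00). Without Fto siRNA replicate 2, 2 rose. Ebf3, the closest expressed relative of Ebf1, fell from 21.2 ± 0.731 to 17.3 ± 0.133 FPKM (SD, n = 4 each; log2 fold change -0.28, limma adjusted p = 5.9e-04). Srebf2, whose product drives cholesterol synthesis genes, rose from 47.5 ± 0.874 to 54.7 ± 1.78 FPKM (0.20, adjusted p = 0.0028). Rxrb, the beta form of the PPAR gamma partner, fell from 25.7 ± 0.885 to 23.3 ± 0.526 FPKM (-0.14, adjusted p = 0.021). Rxrb was not called when control replicate 4 (adjusted p = 0.0629), Fto siRNA replicate 1 (0.0523) or Fto siRNA replicate 4 (0.0566) was left out. The log2 fold changes were 0.17 for Ddit3, the inhibitory C/EBP homologue (limma adjusted p = 0.118), -0.03 for the Zfp423 relative Zfp521 (0.64), 0.01 for Ppard (0.89) and -0.00 for Cebpz (0.97). Cebpe, Ebf4, Ppara and Rxrg had a mean below 1 FPKM and were not tested.

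Of 24 upstream inducers, 23 were tested, 4 rose and 4 fell (34.8% called, beside 19.3% of all tested genes; median log2 fold change 0.02). The counts fell to 2 higher without Fto siRNA replicate 1, 2 or 3, and to 2 lower when any of control replicates 1 and 2 and Fto siRNA replicates 2 and 4 was left out. Mapk3, the gene of the kinase ERK1, fell from 95.5 ± 6.92 to 71.6 ± 1.69 FPKM (SD, n = 4 each; log2 fold change -0.41, limma adjusted p = 4.7e-04). Nfib, a nuclear factor I gene, fell from 27.2 ± 1.22 to 21.7 ± 0.703 FPKM (-0.32, adjusted p = 6.7e-04). Klf4, an activator of Cebpb, rose from 27.8 ± 2.22 to 34.1 ± 1.15 FPKM (0.30, adjusted p = 0.0051). Its target Cebpb was not called. Nr3c1, the glucocorticoid receptor gene, rose from 39.6 to 44.3 FPKM (0.16, adjusted p = 0.011). Fosl2 fell from 24.4 ± 0.820 to 21.2 ± 1.47 FPKM (-0.20, adjusted p = 0.023). Fosl2 was not called when control replicate 1 (0.0600), control replicate 2 (0.0657), Fto siRNA replicate 2 (0.0608) or Fto siRNA replicate 4 (0.0501) was left out.

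Among 27 inhibitors of C/EBP and PPAR gamma, 23 were tested, 5 rose and 5 fell (43.5% called, beside 19.3% of all tested genes; median log2 fold change 0.00). Without control replicate 4, 3 were higher. Klf2, a repressor of Pparg, was at 3.65, 3.89, 5.28 and 4.28 FPKM in the controls and at 10.5, 11.4, 11.4 and 11.6 FPKM with Fto siRNA. Its lowest Fto siRNA value was well above its highest control, and the log2 fold change was 1.31 (limma adjusted p = 2.1e-05), while Pparg was at 32.9 and 32.6 FPKM. The Tribbles genes, whose TRIB1 and TRIB2 products promote degradation of C/EBP alpha, were called in different directions: Trib1 fell (log2 fold change -0.29, adjusted p = 0.0035), and Trib2 (0.31, 0.0058) and Trib3 (0.57, 0.0084) rose. Hes1, a Notch target and repressor, fell from 13.1 ± 0.779 to 9.95 ± 0.841 FPKM (SD, n = 4 each; -0.38, limma adjusted p = 0.0028).

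Of the coactivators and corepressors, 23 were tested, none rose and 2 fell (8.7% called, beside 19.3% of all tested genes; median log2 fold change -0.02). Leaving out control replicate 2 or Fto siRNA replicate 4 gave 1 called higher. Hdac3, a histone deacetylase of the NCoR complex, fell from 55.1 ± 2.27 to 44.9 ± 1.89 FPKM (SD, n = 4 each; -0.29, limma adjusted p = 0.0012). Tle3, a cofactor of PPAR gamma, fell from 13.5 ± 0.578 to 12.1 ± 0.578 FPKM (-0.16, adjusted p = 0.041), a call lost in 9 of the 18 alternatives, with an adjusted p of 0.0529 to 0.103 when any control or Fto siRNA replicate 2 or 4 was left out. In the SREBP processing list 1 of 7 tested genes was called (14.3%, beside 19.3% of all; median 0.04): Mbtps1, the site-1 protease, rose from 70.3 ± 1.68 to 76.4 ± 1.71 FPKM (0.12, adjusted p = 0.027). Mbtps1 was not called without control replicate 4 (0.0735) or without Fto siRNA replicate 1 (0.0679), 3 (0.0687) or 4 (0.0515).

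Targets of PPAR gamma and C/EBP alpha had a median log2 fold change of -0.11: of 32 listed, 23 were tested, 1 rose and 5 fell (26.1% called, beside 19.3% of all tested genes), and 9 were below the minimum. The split was 2 higher and 5 lower after median-ratio scaling, 3 and 4 after quantile normalization and 3 and 6 after the GC correction. Leaving out Fto siRNA replicate 1 gave 2 called higher. Lpl, the lipoprotein lipase gene, fell from 368 ± 8.09 to 301 ± 10.3 FPKM (SD, n = 4 each; -0.29, limma adjusted p = 5.9e-04). Acsl1 (-0.43, adjusted p = 0.0044), Fabp5 (-0.28, 0.0063) and Dgat1 (-0.20, 0.014), which act in fatty acid activation, transport and triglyceride synthesis, fell too. Adipor2, an adiponectin receptor gene, rose (0.17, 0.0077). Fabp4, the adipocyte fatty acid carrier, was at 57.4 ± 8.42 and 52.9 ± 6.36 FPKM (SD, n = 4 each; -0.11, limma adjusted p = 0.51). Adipoq, the adiponectin gene, was at 2.77, 3.20, 3.19 and 9.19 FPKM in the controls and at 2.85, 1.22, 3.54 and 1.67 FPKM with Fto siRNA (-0.77, limma adjusted p = 0.16). Control replicate 4 is the high library for Adipoq, as for the summed mature adipocyte markers above, while its Pparg (32.4 FPKM) and Cebpa (9.04 FPKM) lie within the range of the other controls.

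SREBP1 targets of fatty acid synthesis were called at 17.6%, near the 19.3% of all tested genes: of 17 tested, 2 rose and 1 fell (median log2 fold change 0.04). Leaving out control replicate 3 gave 2 called lower. Slc25a1, the citrate carrier gene, fell from 59.0 ± 2.32 to 51.7 ± 1.97 FPKM (SD, n = 4 each; -0.19, limma adjusted p = 0.0096). Elovl6 (0.20, 0.031) and Scd2 (0.15, 0.035) rose, but neither call was stable. Elovl6 lost its call when any of control replicates 1, 2 and 3 and Fto siRNA replicates 1, 2 and 4 was left out, with limma adjusted p from 0.0504 to 0.0844. Scd2 lost it when any of control replicates 1, 2 and 4 and the same Fto siRNA replicates was left out (0.0553 to 0.0875). Fasn, the fatty acid synthase gene, was at 31.3 ± 2.26 and 32.1 ± 1.79 FPKM (SD, n = 4 each; 0.04, limma adjusted p = 0.70).

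**Figure D5:**
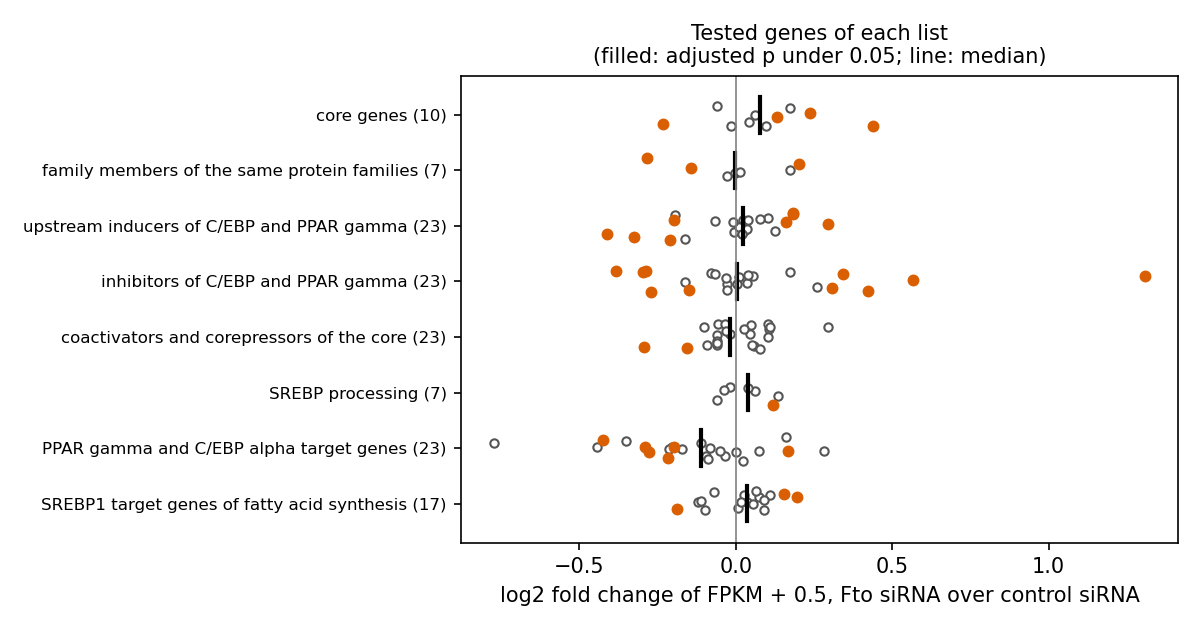
Log2 fold changes, Fto siRNA minus control siRNA, of the 10 core genes and of the tested genes of each of the 7 lists, filled where called, with a line at each median. Klf2 is the point farthest to the right, and medians lie between -0.11 (PPAR gamma and C/EBP alpha targets) and 0.08 (core genes).

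For each called core gene, the tested genes with the most similar pattern over the 8 libraries were found by the mean absolute difference of centred log2 values. Snhg8 (0.072), Trim47 (0.086) and Clcf1 (0.088) were nearest to Cebpa, where the median tested gene differed by 0.244. Cebpg was closest to 9530068E07Rik (0.019), Arf6 (0.025) and Calcrl (0.025; median 0.140). Nearest to Rxra were Mapkapk2 (0.013), Sidt2 (0.015) and Bmp1 (0.015; median 0.0981), and nearest to Ebf1 were Adam12 (0.021), Nrp1 (0.023) and Lrch2 (0.023; median 0.134). Snhg8 followed Cebpa in having control replicate 1 lowest (28.6 FPKM), control replicate 3 highest of the controls (36.9 FPKM) and Fto siRNA replicate 4 highest of all (44.9 FPKM). These neighbours share the libraries and the group difference with the core genes, and the likeness is a description.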

How the data were processed

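Total RNA of 8 libraries was sequenced, 4 with control siRNA and 4 with Fto siRNA, grouped by the sample titles. The submitters' processing notes name TopHat2 (2.0.11), Cufflinks (2.2.1) and the build mm9. The authors deposited FPKM per gene with interval bounds, also in FPKM, in 1 table per library, per the file headers. FPKM holds no counts, so no count test was run. Fragments behind a value were worked out from the upper bound as the square of 2 × FPKM divided by the distance to that bound, and cover counting error only.

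Genes with a mean of at least 1 FPKM were tested on log2(FPKM + 0.5) by limma-trend (limma 3.58.1 under R 4.3.3), two-sided, and p-values were adjusted by Benjamini-Hochberg. The pseudocount of 0.5 shrinks the fold changes of genes near the minimum. Ratios and Fto were tested by exact permutation (Python 3.11.15, scipy 1.17.1). The fit was tested on simulated data. The 10 genes and 7 lists were chosen with earlier results of these data known. Named were all 10 genes, Fto, up to 5 called genes with the lowest p per list, further list genes given as background, and the 3 most similar genes per called core gene. Neighbours of Cebpa and the promoters and transcript groups were chosen after values were seen. The alternatives were pseudocounts of 0.1 and 1, no filter and a mean of 5 FPKM, median-ratio and quantile scaling, no variance trend, a replicate block, each library left out, and an added GC correction. The authors' compiled tables were not used.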

Additional observations from a re-analysis of the deposited data

Results flagged for a closer look

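Of 38 groups of 4 libraries examined (FPKM of the core genes and Fto, and the ratios), 5 held a library far from the other 3: its gap to the nearest, as a share of the whole range, was above Dixon's 95% critical value for 4 samples. Chance alone does this in about 1 in 20 groups. Control siRNA replicate 3 stood apart for 2 genes, high for Pparg at 34.3 FPKM and low for Ebf1 at 38.3 FPKM. Rxra in Fto siRNA replicate 3 was at 50.1 FPKM, above 3 libraries between 48.2 and 48.4 FPKM. Ebf2 in control siRNA replicate 1 was at 1.94 FPKM, above 3 controls between 1.66 and 1.67 FPKM. The log2 ratio of Cebpa to Cebpd in Fto siRNA replicate 1 was -0.84, and the other 3 libraries of its group were at -1.001 or below.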

How the results depend on the processing

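Of 72 fold changes of the 4 called core genes under 18 alternatives, 69 kept direction and call and 3, all of Cebpa, lost the call in the same direction. The genes called higher numbered 794, and 1229 after the GC correction chosen after seeing the data (753 on the same genes uncorrected); the genes called lower numbered 1401 and 1174 (1324 on the same genes uncorrected). The cause was not tested. With 1 library left out the core genes called higher numbered 2 to 3 and the core genes called lower 1. Leaving out control replicate 1 turned Cebpb to -0.020, and its values without 1 library ran from -0.020 to 0.15. The 0.15 came without control replicate 3 (limma adjusted p = 0.0655), the high library for Cebpb. Cebpd ran from -0.13 to 0.01 (0.0069 without control replicate 3). Pparg ran from -0.045 to 0.020 (0.020 without Fto siRNA replicate 1 and 0.0047 without control replicate 3), and was 0.0054 after median-ratio scaling and 0.0084 after the GC correction. None of these values was called. With a pseudocount of 1, log2 ratios passed the adjusted threshold at 0.43 for Cebpa to Pparg, 0.38 for Cebpa to Cebpb, 0.48 for Cebpa to Cebpd, -0.37 for Ebf1 to Ebf2 and -0.32 for Ebf1 to Zfp423. These pairs then shared the smallest exact p, which lowers the adjusted p of each. With 1 library left out the ratio test cannot pass 0.05. Of 664 fold changes of other named genes, 603 kept call and direction and 61 lost the call. Of 252 list counts, 48 moved by over 1.5 times.

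Same-numbered libraries correlated between -0.19 and 0.07 in their deviations, and differently numbered ones between -0.18 and 0.18. The labels do not say whether libraries of the same number share a culture or batch, and these correlations cannot tell. A replicate block gave 628 genes called higher and 1133 lower, with Cebpa (adjusted p = 0.0146), Cebpg (0.0120), Rxra (0.0446) and Ebf1 (0.0155) called. Under it Rxrb (0.0536) and Mbtps1 (0.0700) lost their calls, and the PPAR gamma and C/EBP alpha targets had 2 called higher and 4 lower. Ebf2 and Zfp423 were not tested at a mean of at least 5 FPKM.

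The largest counting error was 8.48% for Ebf2, 5.53% for Zfp423 and 5.48% for Cebpa. For Cebpa the SD of the controls was larger, at 17.4% of their mean. FPKM cannot separate isoforms, overlapping genes or near-identical copies, and 4 libraries a group leave the intervals of Cebpa, Ebf2, Cebpb and Cebpd wide.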
